A study of Mus musculus with 10 samples.

Results

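The 6 genes described here are Mpo, Elane, Prtn3, Ctsg, Prss57 and Ms4a3, which mark neutrophil precursors at the stage when the first granules are made. They were chosen by name, as the genes of the count table whose Ensembl identifiers carry these symbols in a GRCm38 annotation, and all 6 were found among the 55421 genes of the table. The mice, 8 to 12 weeks old, were implanted under the skin with the fibrosarcoma line MC17-51 (M17 in the series text), and myeloid cells were taken at day 15 for RNA sequencing. Myeloid-derived suppressor cells (MDSC) were isolated from the spleen as GR1+ cells with magnetic beads, and tumor-associated macrophages (TAM) were sorted from the tumor as CD11b+F4/80+ cells. All mice carried a floxed Ptpn11, the gene of the phosphatase SHP-2. Shp2f/f mice had no Cre, whereas Shp2f/fLysMcre mice also expressed Cre recombinase from the lysozyme M (Lyz2) locus, which is active in many myeloid cells and not in a single cell type. Each genotype had 2 MDSC libraries and 3 TAM libraries. The labels do not say that they came from separate mice, so p-values measure the spread between these libraries.

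Azurophil, or primary, granules are the first granules that a developing neutrophil makes, at the promyelocyte stage. Their contents are transcribed in a short window, after which the mRNA falls away while the protein stays in the granule for the life of the cell, so that mature neutrophils hold the enzymes with little of their mRNA. Granulocyte-monocyte progenitors and early monocyte precursors also transcribe several of these genes, and macrophages are not a usual source of them.

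Mpo (ENSMUSG00000009350, GRCm38, chr11:87793581-87804413, plus strand) encodes myeloperoxidase, a heme enzyme that makes hypochlorous acid from hydrogen peroxide. Elane (ENSMUSG00000020125, chr10:79886247-79888215, plus strand) encodes neutrophil elastase, Prtn3 (ENSMUSG00000057729, chr10:79874476-79883174, plus strand) encodes proteinase 3 and Ctsg (ENSMUSG00000040314, chr14:56099881-56102574, minus strand) encodes cathepsin G, all of them serine proteases stored active in the granule. Prss57 (ENSMUSG00000020323, chr10:79781474-79790961, minus strand) encodes a further granule serine protease, with trypsin-like cleavage after arginine. Ms4a3 (ENSMUSG00000024681, chr19:11629496-11640851, minus strand) encodes a membrane protein and no granule enzyme, but its transcription marks granulocyte-monocyte progenitors. All 6 are annotated as protein-coding. Elane lies 3.07 kb downstream of Prtn3 on the same strand, and Prss57 lies 83.5 kb from Prtn3 on the other strand.

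The promoters of the genes that were measured together are shown, because several of these genes are known targets of the myeloid factors C/EBP, PU.1, RUNX1 and MYB. RefSeq promoter windows (GRCm38.p6) were found for 5 of the 6 genes, Prss57 being the exception. The sequences run 5' to 3' on the strand of the gene and end at the base before the first exon of the coding transcripts. The window of Mpo held only 47 bases before that exon and is not printed. Capitals mark matches, on either strand, to TTNNGNAA (C/EBP), GAGGAA (PU.1), TGNGGT (RUNX) and AACNGNC (MYB). The windows are chr10:79886062-79886246 for Elane, chr10:79879417-79879613 for Prtn3, chr14:56102575-56102824 for Ctsg and chr19:11640852-11641101 for Ms4a3.
Elane: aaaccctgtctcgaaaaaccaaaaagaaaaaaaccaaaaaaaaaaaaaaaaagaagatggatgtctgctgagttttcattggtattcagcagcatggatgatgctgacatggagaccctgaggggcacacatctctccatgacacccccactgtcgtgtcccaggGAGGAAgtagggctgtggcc
Prtn3: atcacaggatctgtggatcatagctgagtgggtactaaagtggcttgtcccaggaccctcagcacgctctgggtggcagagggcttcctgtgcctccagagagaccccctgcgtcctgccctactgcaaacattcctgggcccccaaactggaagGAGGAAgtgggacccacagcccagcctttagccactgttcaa
Ctsg: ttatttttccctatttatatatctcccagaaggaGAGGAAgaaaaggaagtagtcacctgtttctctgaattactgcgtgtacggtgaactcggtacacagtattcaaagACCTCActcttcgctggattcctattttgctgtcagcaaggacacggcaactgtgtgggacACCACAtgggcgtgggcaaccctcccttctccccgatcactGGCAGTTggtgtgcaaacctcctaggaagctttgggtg
Ms4a3: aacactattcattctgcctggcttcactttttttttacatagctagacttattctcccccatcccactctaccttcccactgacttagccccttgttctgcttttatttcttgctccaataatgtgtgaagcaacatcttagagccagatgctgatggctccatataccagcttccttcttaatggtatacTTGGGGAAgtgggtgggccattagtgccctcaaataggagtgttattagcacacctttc

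The PU.1 letters occurred in the windows of Elane, Prtn3 and Ctsg and not in that of Ms4a3. They lay at positions -20 to -15 of Elane and -42 to -37 of Prtn3, counted back from the first exon base, and at -216 to -211 of Ctsg. Of all 27025 RefSeq promoter windows, 17.5% held the PU.1 letters within a stretch of 185 bases like that of Elane, 18.5% within 197 bases like that of Prtn3 and 23.1% within 250 bases. The Ctsg window also held the RUNX letters at 2 places and the MYB letters at 1 place, which 39.9% and 27.6% of windows of 250 bases held. The only C/EBP letters were in Ms4a3, where 36.9% of such windows held them. No motif was thus shared by the 4 windows, and a match of letters does not show that a factor binds.

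The libraries held between 28844660 and 38222998 counts in all. The targeted gene, Ptpn11, had 99.2 and 113 CPM in the Shp2f/f MDSC libraries against 79.7 and 94.8 CPM in the Shp2f/fLysMcre MDSC libraries (log2 fold change -0.29, edgeR adjusted p = 0.361), where CPM is the count scaled to the size of the library. In TAM it had 121 to 125 CPM against 50.9 to 54.2 CPM (log2 fold change -1.24, edgeR adjusted p = 2.96e-09). The counts cover the whole gene and not only the floxed segment. Lyz2, the locus that carries Cre, separated the genotypes in both cell types, with 8970 and 9460 CPM against 43.3 and 47.1 CPM in MDSC. In TAM it was at 3440 to 3670 CPM against 9.38 to 12.6 CPM. The loss of Lyz2 RNA thus went with genotype and cannot be told apart from the deletion of Ptpn11. Xist, which marks female cells, was at 1 count in each Shp2f/f MDSC library and at 119 and 132 CPM in the Shp2f/fLysMcre MDSC libraries, and in TAM it was at 4.82 to 18.1 CPM against 209 to 372 CPM. Ddx3y, a gene of the Y chromosome, was at 50.6 and 54.8 CPM in Shp2f/f MDSC and at 22.3 and 27.8 CPM in Shp2f/fLysMcre MDSC. In TAM it was at 81.8 to 85.6 CPM against 38.6 to 44.7 CPM. The Shp2f/fLysMcre libraries thus held Xist together with RNA of the Y chromosome, that is RNA of both sexes. The sex makeup of the samples went with genotype and cannot be told apart from it.

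The cell type labels were set against marker genes. The TAM libraries held 9617 to 15600 CPM over 8 macrophage genes, against 1891 to 2701 CPM in MDSC. The MDSC libraries held 3375 to 5713 CPM over 5 monocyte genes, more than the 1726 to 2308 CPM of TAM. Ly6g, the surface marker of the granulocytic MDSC named in the methods of the study, was at 8.92 and 11.9 CPM in Shp2f/f MDSC and at 29.8 and 33.2 CPM in Shp2f/fLysMcre MDSC. The MDSC libraries therefore held RNA of monocytic as well as granulocytic genes, and MDSC is used below as the name of the label. One library stood apart, since replicate 2 of Shp2f/fLysMcre MDSC held 449.5 CPM over 5 fibroblast genes and the other MDSC libraries held 6.62 to 24.5 CPM.

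The azurophil granule genes were well expressed in MDSC and near 0 in TAM, and within MDSC all 6 were higher in Shp2f/fLysMcre. Summed over the 6 genes, the level was 444.7 and 492.4 CPM in Shp2f/f MDSC and 1059 and 1283 CPM in Shp2f/fLysMcre MDSC. In TAM the sum was between 0.841 and 2.09 CPM. Each of the 6 genes passed the filter on low counts in MDSC (edgeR's filterByExpr with a minimum count of 10). Each was called higher in Shp2f/fLysMcre by the edgeR quasi-likelihood test, where a call is an adjusted p under 0.05 over all genes tested. The adjusted p was between 0.017 and 0.0354 for the 6 genes, while 3.76% of the 14806 genes tested were called higher. From the same data the study had reported Mpo, Elane, Prtn3 and Ctsg as higher in Shp2f/fLysMcre MDSC. The number called is therefore no independent support. The log2 fold changes were between 1.01 and 1.78, with a median of 1.48 against -0.01 over all genes tested. The genotypes did not overlap in any of the 6 genes, and 24.9% of all genes tested had both Shp2f/fLysMcre libraries above both Shp2f/f libraries. In these bulk libraries, more cells that transcribe a gene and more RNA per cell cannot be told apart.

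**Figure D1:**
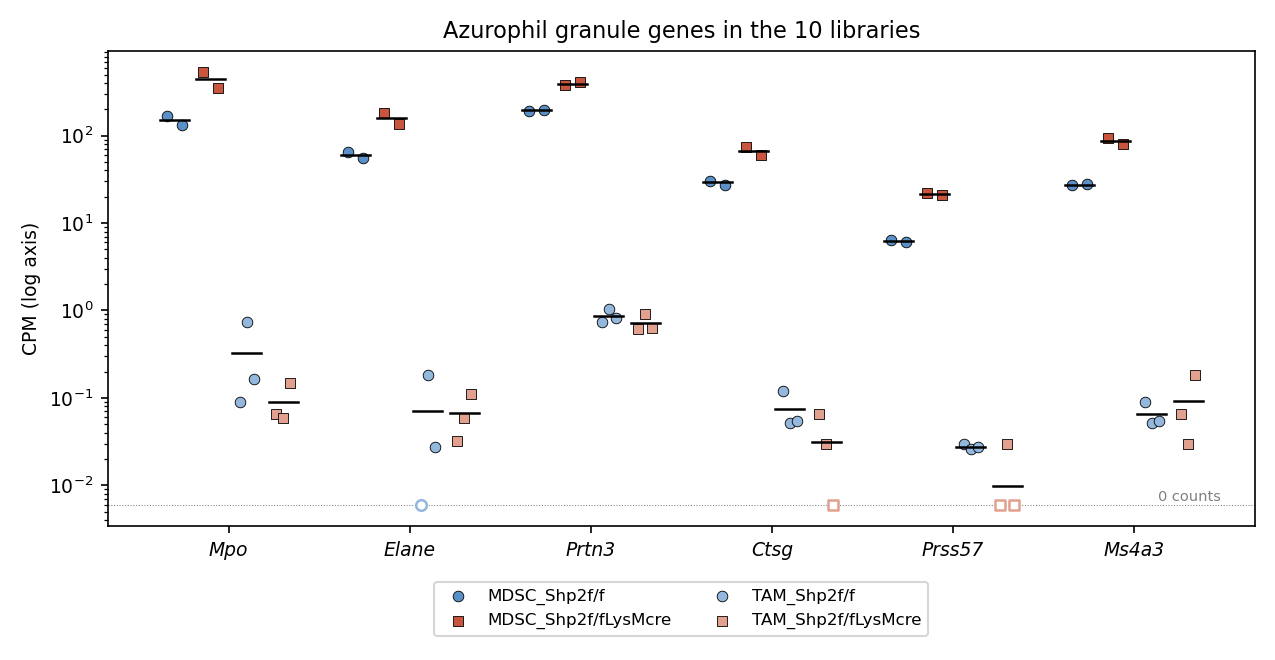
CPM of the 6 genes (log axis) in each of the 10 libraries, by cell type and genotype; horizontal bars are group means and open symbols on the dotted line are libraries with 0 counts. In MDSC both Shp2f/fLysMcre libraries lie above both Shp2f/f libraries for each gene, and all TAM libraries lie at or below 1.04 CPM.

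Of the enzymes, Mpo was at 169.8 and 131.1 CPM in Shp2f/f MDSC and at 529.8 and 350.4 CPM in Shp2f/fLysMcre MDSC. Replicate 1 was the higher library of both genotypes, and the lower Shp2f/fLysMcre library was still more than the higher Shp2f/f library. The level rose 2.92-fold (log2 fold change 1.54, SE 0.248, adjusted p = 0.0354), with the largest SE and adjusted p of the 6 genes.

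Elane was at 65.2 and 55.0 CPM in Shp2f/f MDSC and at 183.7 and 137.3 CPM in Shp2f/fLysMcre MDSC, a 2.66-fold rise (log2 fold change 1.41, SE 0.188, adjusted p = 0.0238). Like Mpo, it was higher in replicate 1 of each genotype. Prtn3, its upstream neighbour, was at 193.2 and 197.4 CPM against 379 and 410.3 CPM, and here replicate 2 was the higher library of each genotype. Its 2.01-fold rise was the smallest of the 6 (log2 fold change 1.01, SE 0.113, adjusted p = 0.0187).

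Ctsg, which lies in a cluster of granzyme and mast cell protease genes on chromosome 14, was at 30.7 and 27.4 CPM in Shp2f/f MDSC and at 74.9 and 59.7 CPM in Shp2f/fLysMcre MDSC. It rose 2.31-fold (log2 fold change 1.21, SE 0.155, adjusted p = 0.023). Prss57 was the least abundant member, at 6.45 and 6.0 CPM against 22.0 and 20.9 CPM. Its replicates lay close together, and its 3.43-fold rise was the largest of the 6 (log2 fold change 1.78, SE 0.131, adjusted p = 0.017).

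Ms4a3, the membrane protein gene, was at 27.1 and 27.7 CPM in Shp2f/f MDSC and at 93.4 and 80.3 CPM in Shp2f/fLysMcre MDSC. It rose 3.16-fold (log2 fold change 1.66, SE 0.126, adjusted p = 0.017), so that the gene that encodes no granule enzyme lay within the range of the enzymes. Ranked by log2 fold change among the 14806 genes, Prss57 stood at 433, Ms4a3 at 499, Mpo at 571, Elane at 707, Ctsg at 956 and Prtn3 at 1260.

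The calls were lost when a control library was left out, which leaves 1 library in that arm, assumed to vary like the 2 Shp2f/fLysMcre libraries. Without replicate 1 or without replicate 2 of Shp2f/f MDSC, 0 of the 6 genes were called by edgeR (adjusted p between 0.59 and 0.699 over both settings), although all 6 had an unadjusted p under 0.05, and over all genes only 1 was called in each setting, against 633 with all 4 libraries. The log2 fold changes stayed between 0.99 and 1.83 in these 2 settings. Leaving out a Shp2f/fLysMcre library leaves 1 library in the other arm in the same way. Without replicate 1 of Shp2f/fLysMcre MDSC all 6 were called, with log2 fold changes between 0.99 and 1.70. Without replicate 2 of that group, the library with the fibroblast genes, all 6 were called again and ranged from 0.96 for Prtn3 to 1.83 for Prss57.

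Set against gene length, the most and the least abundant members differed more from each other than either did between genotypes. Per kilobase of exon sequence, Prtn3 had the highest level in Shp2f/f MDSC, at 113 ± 1.74 CPM per kb (SD, n = 2). Elane followed at 61.1 ± 7.34, then Mpo at 43.9 ± 7.99, Ctsg at 28.1 ± 2.2, Ms4a3 at 14.5 ± 0.23 and Prss57 at 2.19 ± 0.11 CPM per kb. No neighbours in this order overlapped. In Shp2f/fLysMcre MDSC the order was the same, from 228 ± 12.8 CPM per kb for Prtn3 to 7.55 ± 0.281 for Prss57. There Elane, at 186.7 and 139.5 CPM per kb, overlapped with Mpo, at 154.7 and 102.3. The exon length of Prtn3 includes an exon of a noncoding transcript far upstream, so its level per kb is a lower value than the coding transcripts alone would give.

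The mixture of the 6 transcripts is given as a description and was not tested. Prtn3 made up 41.7% of the reads of the 6 genes in Shp2f/f MDSC (exact 95% interval 41.1 to 42.2) and 33.9% in Shp2f/fLysMcre MDSC (33.6 to 34.2). By library, the Prtn3 share was 39.2% and 44.4% against 29.5% and 38.7%, so the genotypes did not overlap but lay close. Mpo made up 32.1% and 37.4% of the summed reads, but by library it was at 34.5% and 29.5% against 41.3% and 33.1%, so the genotypes overlapped. The share of Ms4a3, 5.5% and 6.22% against 7.28% and 7.58% by library, did not overlap. These intervals cover counting error only, and the libraries of a group lay further apart than the intervals. There were 2.96 and 3.59 reads of Prtn3 per read of Elane in Shp2f/f and 2.06 and 2.99 in Shp2f/fLysMcre, so the genotypes overlapped in this ratio. Prss57 per read of Elane did not overlap, with 0.0988 and 0.109 against 0.12 and 0.152.

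**Figure D2:**
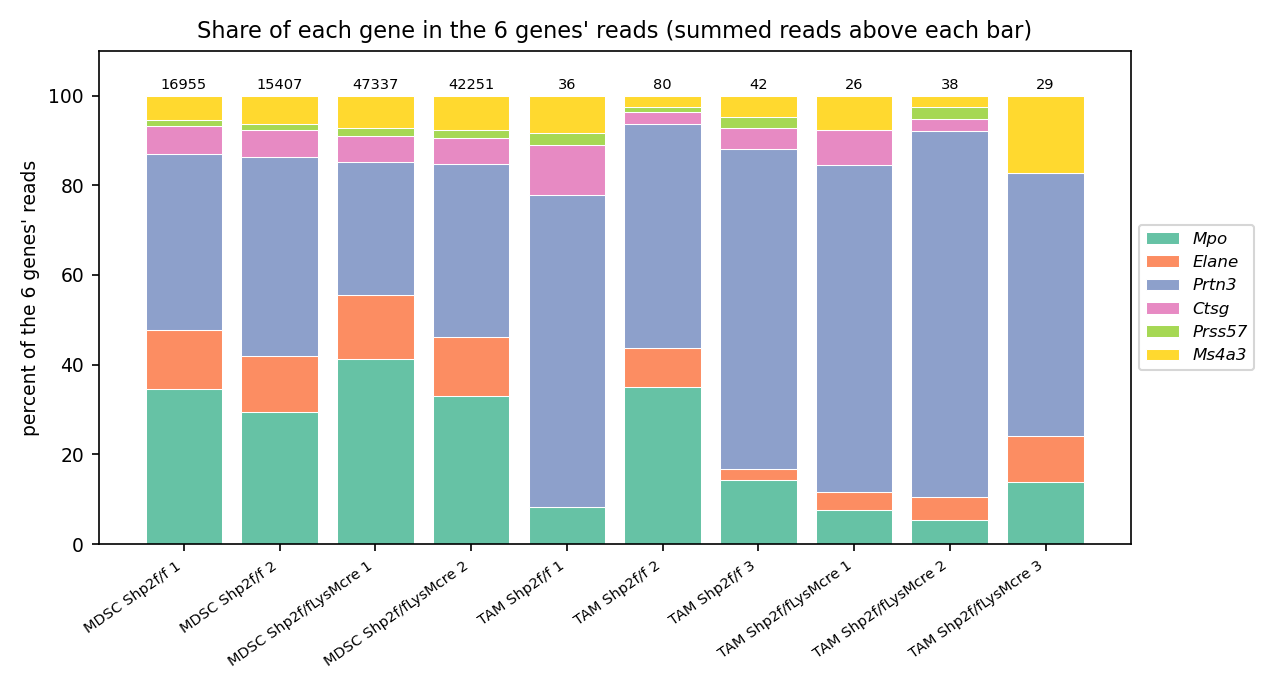
Percent of the reads of the 6 genes that each gene took in each library, with the summed reads above each bar. Prtn3 and Mpo together hold most reads in MDSC, while in TAM, where the sums are 26 to 80 reads, Prtn3 holds 50% to 81.6% of them.

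In TAM the 6 genes had few reads, and only Prtn3 passed the filter on low counts. Prtn3 had 25, 40 and 30 counts in the Shp2f/f libraries (0.740, 1.04 and 0.818 CPM) and 19, 31 and 17 counts in the Shp2f/fLysMcre libraries (0.614, 0.921 and 0.625 CPM). The genotypes overlapped, and the log2 fold change of -0.30 was not called (SE 0.268, 95% interval -0.89 to 0.29, edgeR adjusted p = 0.388) in a comparison that called 50.2% of 14446 genes in either direction. The reads of Prtn3 are uncertain at this level, since its noncoding transcript shares sequence with the first exons of Plppr3 on the other strand, and the strand setting of the counting was not given in the sources used here. Plppr3 had 12 to 27 counts in Shp2f/f TAM and 27 to 38 in Shp2f/fLysMcre TAM, a move opposite to that of Prtn3.

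Mpo had 3, 28 and 6 counts in Shp2f/f TAM and 2, 2 and 4 counts in Shp2f/fLysMcre TAM. The group difference came mainly from replicate 2 of Shp2f/f, which held 28 of 37 reads, and the genotypes overlapped. The ratio of summed reads, Shp2f/fLysMcre over Shp2f/f, was 0.256 (exact 95% interval 0.103 to 0.559). With no filter on low counts Mpo was called lower in TAM (log2 fold change -1.91, SE 0.63, edgeR adjusted p = 0.0114).

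Elane had 0, 7 and 1 counts in Shp2f/f TAM, again with the most in replicate 2, and 1, 2 and 3 counts in Shp2f/fLysMcre TAM. A count of 0 in replicate 1 of Shp2f/f allows up to 0.0888 CPM, the level of 3 counts. Ctsg had 4, 2 and 2 counts against 2, 1 and 0, Prss57 had 1, 1 and 1 against 0, 1 and 0, and Ms4a3 had 3, 2 and 2 against 2, 1 and 5. For these 4 genes the interval of the ratio of summed reads included 1, and a difference was not detectable at this depth. The widest interval was that of Prss57, from 0.00752 to 4.92.

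Prtn3 took a larger part of the few reads in TAM than in MDSC. It made up 60.1% of the 158 reads of the 6 genes in Shp2f/f TAM (exact 95% interval 52 to 67.8) and 72% of the 93 reads in Shp2f/fLysMcre TAM (61.8 to 80.9). By library the TAM share lay between 50% and 81.6%, against at most 44.4% in MDSC. The lowest, replicate 2 of Shp2f/f with 80 of the reads, had an interval of 38.6 to 61.4 that included the MDSC value. The overlap of Prtn3 with Plppr3 also leaves these shares uncertain. Elane, its neighbour, made up 5.06% and 6.45% of the TAM reads against 12.8% and 13.7% of the MDSC reads.

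Between the cell types of Shp2f/f mice, the fitted log2 difference of the 6 genes, TAM against MDSC, was between -9.61 and -7.64, and each was called by edgeR, at adjusted p between 7.99e-11 and 2.06e-08. Of the 16581 genes in the fit of all 10 libraries, 34.6% were called lower in TAM. All of the 6 genes but Prtn3 passed the filter of that fit only through their level in MDSC, which favors a difference, so the number called supports nothing. As a ratio of summed reads, MDSC over TAM, Elane was at 817 (exact 95% interval 414 to 1890), Mpo at 442 (321 to 628), Ms4a3 at 425 (206 to 1060) and Ctsg at 395 (200 to 916). Prss57, with 3 reads in TAM, was at 226 (76.7 to 1100), and Prtn3 was at 224 (183 to 277). The values of Elane and Mpo depended on replicate 2 of Shp2f/f TAM, which held 7 of 8 and 28 of 37 of their TAM reads. Without it the fitted log2 difference went from -9.61 to -11.72 for Elane and from -8.78 to -10.16 for Mpo. Spleen and tumor, and beads and sorting, go with the cell type and cannot be told apart from it.

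Whether the genotype effect differed between the cell types was tested as the effect in TAM minus the effect in MDSC over all 10 libraries. Per the methods both cell types were taken from the same animals, but no label links libraries to animals, and the libraries were fitted as independent. The difference was -1.27 on the log2 scale for Prtn3 (SE 0.219, edgeR adjusted p = 0.00248) and -3.46 for Mpo (SE 1.06, edgeR adjusted p = 0.0403), so both had an adjusted p under 0.05, in a fit that called 12.7% of genes lower in this sense. The TAM reads of Prtn3 are uncertain, as described above, through its overlap with Plppr3. Prtn3 passed the filter on low counts in each cell type. Mpo did not pass it in TAM and entered this fit through its level in MDSC, with 28 of its 37 Shp2f/f TAM reads in replicate 2, so its value is a description and supports no difference between the cell types. Without that library it was -2.08 (adjusted p = 0.221). The adjusted p of Mpo was also above the threshold, with differences about as large, without either Shp2f/f MDSC library (-3.66 and -3.27, adjusted p = 0.0572 and 0.0904) and without any one of the Shp2f/fLysMcre TAM libraries (-3.94 to -3.23, adjusted p between 0.0639 and 0.0986). The other 4 genes, which also entered through MDSC, were not called, with differences of -1.58 for Elane (adjusted p = 0.367), -2.30 for Ctsg (0.0669), -2.89 for Prss57 (0.112) and -1.25 for Ms4a3 (0.232). Without replicate 2 of Shp2f/f TAM the difference of Elane turned to 0.54 (adjusted p = 0.792). At 0 to 7 reads per TAM library, these 4 values say little about the effect in TAM.

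Genes that act on the products of the 6 genes, or that regulate them, were called in part, and the counts of each list stand against 3.76% of all genes tested that were called higher. Of 8 genes for protease activation and granule packaging, 1 was called in MDSC, with a rise, and the median log2 fold change was 0.06. Ctsc, whose product cathepsin C cuts the activation peptide from the granule serine proteases, had a log2 fold change of -0.42 (edgeR adjusted p = 0.244) at 1160 CPM in Shp2f/f MDSC. Cd63, a tetraspanin of the azurophil granule membrane, was the gene called, with a rise of 2.08 on the log2 scale (adjusted p = 0.0183). It had 45.5 and 71.0 CPM in Shp2f/fLysMcre MDSC against 13.5 and 13.9 CPM, the 71.0 CPM in replicate 2, the library with the fibroblast genes. Cd63 is not limited to cells with azurophil granules, since it had 442 to 468 CPM in Shp2f/f TAM and 475 to 571 CPM in Shp2f/fLysMcre TAM. The next gene by size was Lyst, which governs the size of lysosome-related granules, at 0.65 (adjusted p = 0.352).

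Of 4 inhibitors of the proteases, 1 was called (2 by DESeq2), with a median of 0.69. Serpinb1a, the cytosolic serpin that inactivates elastase, cathepsin G and proteinase 3, rose by 1.29 on the log2 scale (adjusted p = 0.024), from 87.4 and 87.7 CPM to 184 and 247 CPM. Serpinb6a, another cytosolic serpin, was at 0.80 (adjusted p = 0.188), and Cst7, which encodes an inhibitor of the activating cathepsin C, was at 0.59 (adjusted p = 0.097).

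Of 8 transcription factors that regulate granule genes, 2 were called by edgeR, both higher (5 had an unadjusted p under 0.05), and the median was -0.14. Gfi1, a repressor needed for granulocyte development, rose by 2.26 (adjusted p = 0.017), from 3.90 and 4.47 CPM to 19.3 and 21 CPM. Cebpe, which drives the next, secondary granules, rose by 1.94 (adjusted p = 0.0183). Runx1 was at -0.45 (adjusted p = 0.15). Cebpa at -0.41 (adjusted p = 0.184), Myb at 0.14 (adjusted p = 0.639) and Spi1, which encodes PU.1, at -0.14 (adjusted p = 0.64), the factors named with the promoter letters above, were not called either. In TAM, 2 of the 8 were called higher and 1 lower, in a comparison that called 50.2% of genes in either direction. There Cebpa rose by 0.94 (adjusted p = 3.83e-08) and Myb fell by 1.47 (adjusted p = 0.00815), while Cebpe and Gfi1 were not called. Irf8 had 99.9 to 107 CPM in Shp2f/f TAM and 167 to 177 CPM in Shp2f/fLysMcre TAM.

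Of 9 genes for the folding of myeloperoxidase and for heme synthesis, 2 were called in MDSC by edgeR, both higher (5 were called by DESeq2), and the median was 0.34. These were the heme synthesis genes Alad at 1.23 (adjusted p = 0.0277) and Cpox at 0.85 (adjusted p = 0.0405). They are also high in red cell precursors, and 5 of 6 erythroid genes were called higher beside them. The chaperone genes Calr, Canx and Pdia3, which act in the maturation of the enzyme, had log2 fold changes of -0.51, -0.30 and -0.38 and were not called (adjusted p = 0.148, 0.367 and 0.193).

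**Figure D3:**
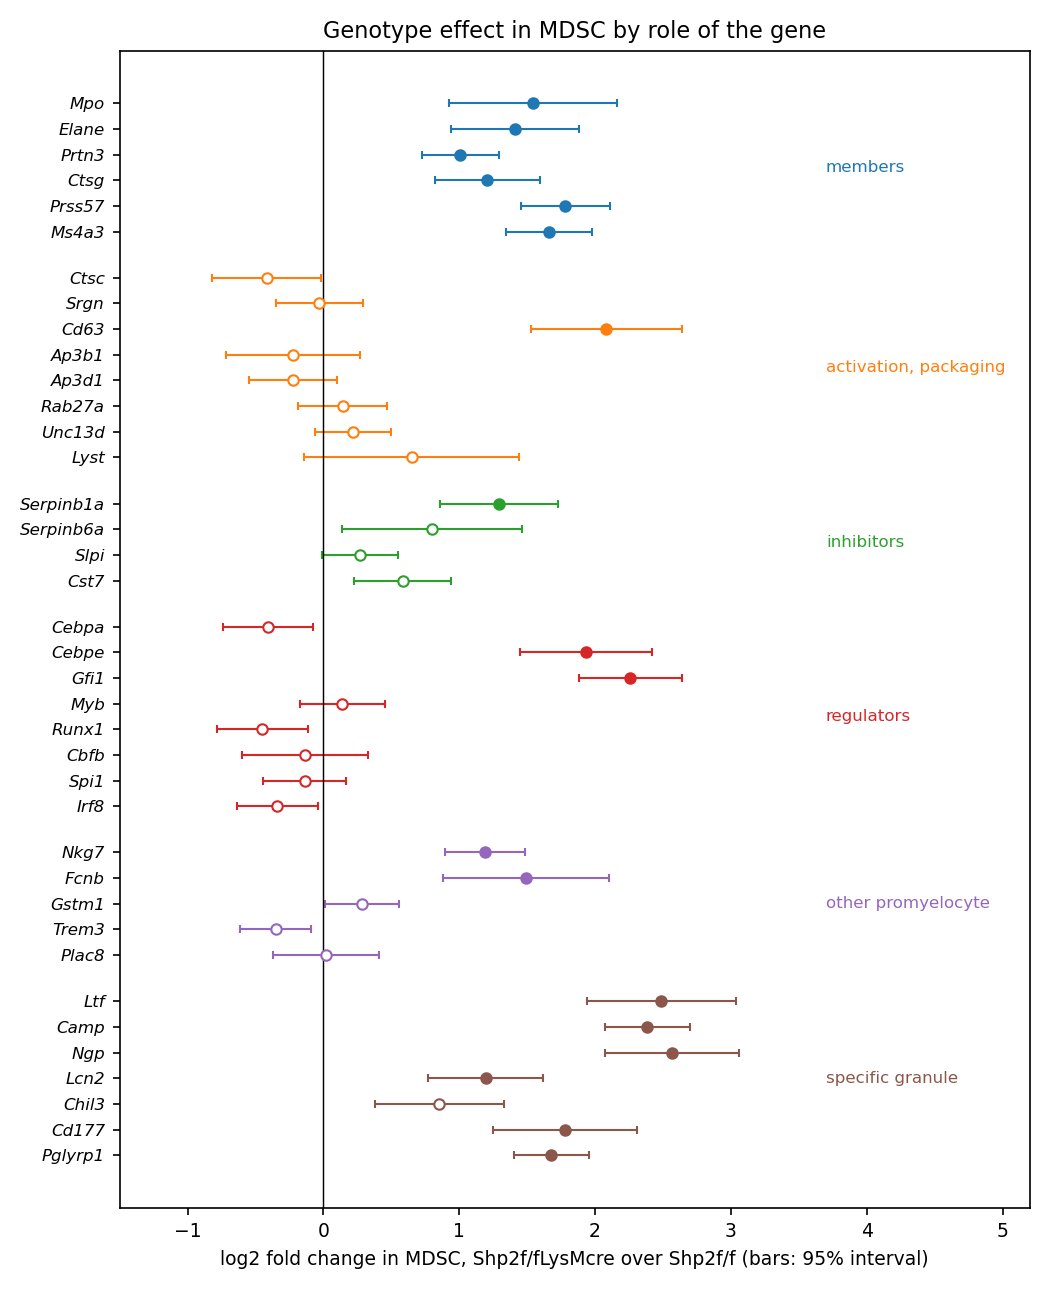
Log2 fold change in MDSC, Shp2f/fLysMcre over Shp2f/f, with 95% intervals for the 6 genes (members) and for 5 lists of genes that act with them or follow them; filled points were called at an adjusted p under 0.05. All 6 members and 6 of 7 specific granule genes are filled, against 1 of 8 activation and packaging genes.

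Genes of later granules and of the same stage gave mixed counts. Of 7 specific granule genes, made at the myelocyte stage, 6 were called in MDSC, all higher, with a median of 1.78, led by Ngp at 2.57 (adjusted p = 0.017), Ltf at 2.49 (adjusted p = 0.0179) and Camp at 2.38 (adjusted p = 0.0111). Of 5 other genes known from promyelocytes, 2 were called, both higher, with a median of 0.29. Fcnb, which encodes a ficolin, rose by 1.49 (adjusted p = 0.0372), Nkg7, a granule membrane gene, rose by 1.19 (adjusted p = 0.0183) and Trem3 was at -0.35 (adjusted p = 0.148). In TAM, 1 of these 5 was called higher and 4 lower, in a comparison that called 50.2% of genes in either direction. There Fcnb fell by 1.19 (adjusted p = 0.0241), from 15 to 28 counts per library to 4 to 12, and Nkg7 fell by 1.54 (adjusted p = 0.000216). All 5 T and NK cell genes were also called lower in TAM, with a median of -1.29. Of 10 genes of mature neutrophils, 3 were called, all higher (5 were called by DESeq2), namely S100a9, Ly6g and S100a8, and the median was 0.60.

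Levels of marker genes of other cells also differed between the genotypes in MDSC. The sum of 6 erythroid genes was 239.9 and 257.4 CPM in Shp2f/f and 537.8 and 628.2 CPM in Shp2f/fLysMcre, with 5 of 6 called higher. That of 8 mast cell and basophil genes was 10.8 and 11.4 against 27.5 and 30.8 CPM, with 3 of 5 tested genes called higher and 1 of the 8 at 0 counts. That of 10 proliferation genes was 806.7 and 842.5 against 1560 and 1802 CPM, with 9 of 10 called higher. In the other direction, the monocyte sum was 5470 and 5713 CPM against 3375 and 4460 CPM, with 0 of 5 called by edgeR (3 by DESeq2 and 3 at an unadjusted p under 0.05), and the macrophage sum was 2617 and 2701 against 1891 and 2110 CPM, with 1 of 8 called lower. The progenitor genes, such as Cd34 and Kit, summed to 61.7 and 62.0 against 58.4 and 59.3 CPM, with 0 of 6 called by either tool and 2 at an unadjusted p under 0.05. Of the remaining lists, edgeR called 0 of 4 tested eosinophil genes (1 by DESeq2, 3 at an unadjusted p under 0.05), 0 of 5 T and NK cell genes (0 by DESeq2, 2 unadjusted) and 0 of 5 fibroblast genes (1 by DESeq2, 3 unadjusted), and 2 of 5 B cell genes were called lower. What part the makeup of the samples has in the rise of the 6 genes was not tested.

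The genes nearest to the 6 were called in part. Of 20 genes that are no members and are among the 2 nearest on a side, 13 were tested in MDSC and 4 were called, all higher, namely Mcpt8, Ms4a2, Plppr3 and Palm, while 3.76% of all genes tested were called higher. Beside Elane, the serine protease gene Cfd, which encodes complement factor D, had 0 to 6 counts in the MDSC libraries, and Med16, a Mediator subunit gene and the next gene after it, had a log2 fold change of 0.09 (edgeR adjusted p = 0.797). Lpo, the lactoperoxidase gene 2015 bases from Mpo, had at most 1 count in an MDSC library. The other genes around Mpo, Supt4a, Tspoap1 and Mks1, had log2 fold changes of -0.08, 0.05 and -0.39 and were not called (adjusted p = 0.759, 0.88 and 0.256). Beside Ctsg, the basophil protease gene Mcpt8 rose by 1.39 (adjusted p = 0.029), from 3.43 and 3.75 CPM to 8.24 and 10.8 CPM. Mcpt4, Gzme and Gzmd around it did not pass the filter. Beside Ms4a3, Ms4a2, which encodes a chain of the IgE receptor, rose by 1.55 (adjusted p = 0.034), while Ms4a6d was at -0.48 (adjusted p = 0.105), Oosp1 was at 0.62 (adjusted p = 0.424) and Oosp2 was not tested. Mcpt8 and Ms4a2 are both in the mast cell and basophil list.

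Over the wider family of related proteases, peroxidases and Ms4a genes, 24 in all, 15 passed the filter in MDSC. Ms4a2 and Mcpt8 were called higher, and Gzmb, which encodes granzyme B, was called lower with a log2 fold change of -1.35 (adjusted p = 0.0484). The median of the 15 was -0.34.

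Around the cluster on chromosome 10, 26 other protein-coding genes within 250 kb of Elane on each side were tested. Of these, 2 were called, both higher, and the median log2 fold change was 0.11. The called genes were Plppr3 at 0.89 (adjusted p = 0.0232) and Palm, the gene next to Prss57 at a distance of 2611 bases, at 0.69 (adjusted p = 0.0326). Palm encodes the membrane-bound protein paralemmin. Plppr3 overlaps the noncoding exon of Prtn3 on the other strand, and Fstl3 overlaps Prss57 (log2 fold change 0.60, adjusted p = 0.211), so reads of these pairs may have been shared. Misp had a log2 fold change of 1.71 with a wide interval of 0.40 to 3.02 and was not called (adjusted p = 0.16), and Ptbp1, Rnf126 and Fgf22 were at 0.04, at 0.00 and not tested. Over Mpo, the antisense gene Gm11505 had 1 count in the 4 MDSC libraries.

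**Figure D4:**
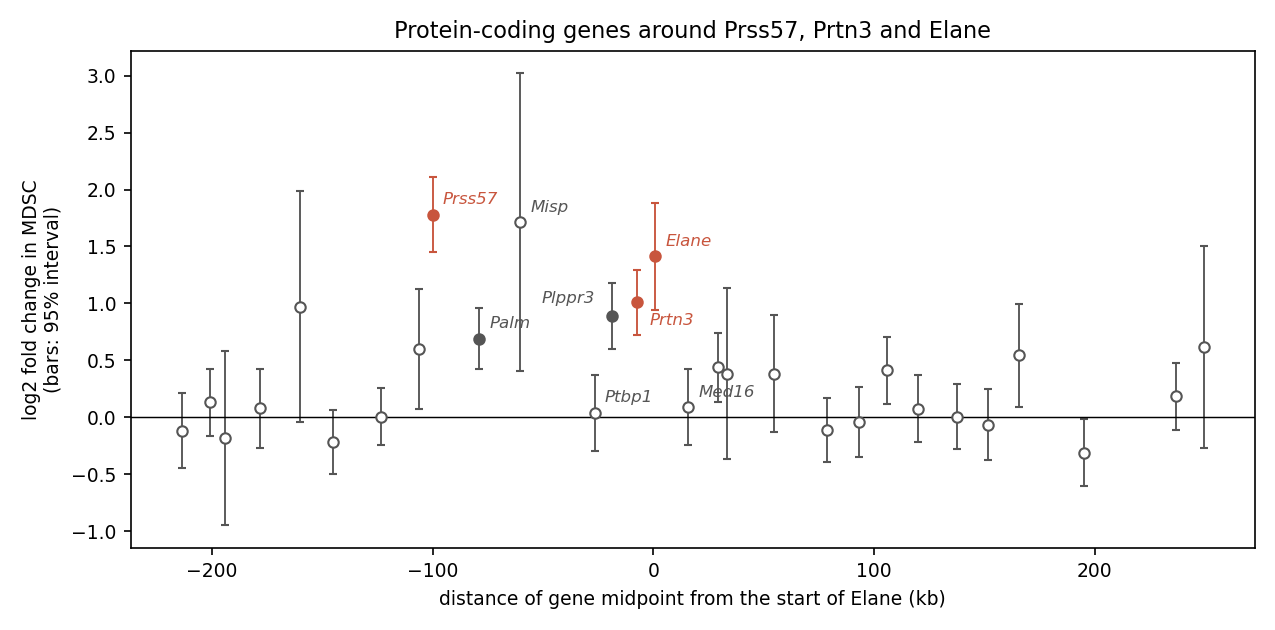
Log2 fold change in MDSC with 95% intervals for the protein-coding genes tested around Prss57, Prtn3 and Elane, by distance of the gene midpoint from the start of Elane in kb; filled points were called, and the 3 granule genes are in red. Apart from these, Palm and Plppr3 are filled, and most other genes lie near 0.

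The genes whose pattern over the 10 libraries was nearest to the mean pattern of the 6 were searched among 8653 genes with at least 10 CPM in MDSC. The measure was the root mean square difference of centred log2(CPM + 0.5) values. The nearest was Lcn2, which encodes the iron-binding protein lipocalin 2 of specific granules, at 0.33. Fcnb followed at 0.35, Slc4a1, the anion exchanger of red cells, at 0.36, S100a8, a calcium-binding protein of neutrophils, at 0.37 and the immunoglobulin segment Igkv5-39 at 0.39. For comparison, Ms4a3, Ctsg and Elane lay 0.26 to 0.30 from the mean they are part of, Prtn3 lay 0.48, Mpo 0.87 and Prss57 1.13 from it. In TAM the 6 genes were near or below the added 0.5 CPM, so these distances also depend on the level of a gene in MDSC. Igkv5-39 was not called in MDSC (edgeR adjusted p = 0.278). All these libraries share the contrast of spleen and tumor, so the measure is a description. Lcn2 was at 890 CPM in Shp2f/f MDSC and 2040 CPM in Shp2f/fLysMcre MDSC and at 14.6 and 13.1 CPM in TAM, above the 6 genes there.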

How the data were processed

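RNA was measured in 10 libraries of 4 groups. The authors deposited raw counts, whole numbers of reads per gene that are not normalized; a normalized table was also deposited and was not used. Per the labels, poly(A) libraries of the TruSeq Stranded mRNA kit were sequenced as paired-end 42-nt reads. The submitters' processing notes name FastQC 0.11.5, cutadapt 2.5, STAR 2.7.3a, featureCounts of Subread 1.6.2, DESeq2 1.24.0 and GRCm38. The strand setting and the treatment of reads with several matches are not given in the sources used here, so counts of overlapping genes and close paralogs are uncertain.

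Groups and replicate numbers came from the sample titles. Symbols and coordinates came from GENCODE M21 (GRCm38), which matched 99.7% of gene identifiers. The quasi-likelihood F test of edgeR 4.0.16 (R 4.3.3), two-sided, was applied to the counts after filterByExpr (minimum count 10) and TMM scaling, with Benjamini-Hochberg adjustment over all genes tested and a call at an adjusted p under 0.05. Genotypes were compared within MDSC (4 libraries) and TAM (6 libraries), and the difference of effects and the cell types over all 10 libraries. Standard errors and 95% intervals of fold changes were derived from the F statistic. CPM were scaled by TMM over all 10 libraries. Shares and ratios of summed counts have exact binomial intervals, and a count of 0 allows up to 3 counts, both for counting error only. At 28844660 to 38222998 counts per library, 3 counts are 0.0752 to 0.11 CPM.

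The members and lists were chosen with earlier results of these data known. Values are named for all 6 genes, for up to 3 genes per list (called genes first, then the largest changes, at a mean of at least 1 CPM in MDSC) plus genes that a result turns on, for the 2 nearest protein-coding genes on each side and for the 5 most similar profiles. Others (Ctsc, Cebpa, Myb, Spi1 and the chaperone genes) were added for their role, after their values were seen. A gene of the list for folding and heme synthesis is not reported here and was left out of that list's counts. Chi-square per degree of freedom between replicates was 4.46 to 58.1, above sampling noise for every pair. The fits were tested on simulated counts with the same spread for all genes and comparisons, whereas the spread of the data differed between comparisons. The changed genes had a mean above 1 CPM and equal levels in all groups before the change. The shares recovered therefore do not cover genes with as few reads as the 6 genes had in TAM. At a log2 change of 1, 39% of changed genes were recovered in the MDSC comparison and 15% for the difference of effects. At a log2 change of 2, 99% and 95% were recovered. A gene that was not called may therefore still have changed. Alternatives were DESeq2 1.42.0, other scalings, no filter, a replicate block, one fit of all libraries and leaving out each library. Promoters were read from RefSeq (GRCm38.p6). Figures were drawn with matplotlib 3.10.9.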

Additional observations from a re-analysis of the deposited data

Results flagged for a closer look

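In the test of whether the genotype effect differed between TAM and MDSC, 2 of the 6 genes had an adjusted p under 0.05. The difference, TAM minus MDSC, was -3.46 on the log2 scale for Mpo (edgeR adjusted p = 0.0403) and -1.27 for Prtn3 (edgeR adjusted p = 0.00248). For Prtn3 it rested on 17 to 40 counts in each TAM library and was called in each of the 15 alternatives. These alternatives did not change how reads were assigned to genes. The TAM reads of Prtn3 thus stay uncertain through its overlap with Plppr3 on the other strand. For Mpo the difference rested on 2 to 28 counts in each TAM library, 28 of them in replicate 2 of Shp2f/f, and the call was lost in 6 of 15 alternatives. Mpo did not pass the filter on low counts in TAM and entered the fit of all libraries through its level in MDSC, so its value supports no difference between the cell types.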

How the results depend on the processing

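Log2 fold changes of the 6 genes in MDSC stayed positive in all 10 alternatives, from 0.96 for Prtn3 to 1.83 for Prss57. The number called higher, 6, fell to 2 (Prss57 and Ms4a3) with no filter on low counts, where 27261 genes were tested and the lost calls had adjusted p between 0.0507 and 0.0916, and lay between 0 and 6 on leaving out 1 library. In TAM no member was called except 1, Mpo, with no filter. For the difference of effects the number called, 2, lay between 1 and 3 on leaving out 1 library, and the value of Elane, -1.58, lay between -2.09 and 0.54, the latter without replicate 2 of Shp2f/f TAM. The comparison of TAM with MDSC gave 6 calls in all 15 alternatives. This number supports nothing, since all 6 genes but Prtn3 entered only through their level in MDSC. Without replicate 2 of Shp2f/f TAM the log2 difference in that comparison was -11.72 for Elane and -10.16 for Mpo. No label says that replicate numbers pair the samples. Correlations of the deviations of same-numbered libraries were 0.29 in MDSC and -0.13 to 0.051 in TAM. With 2 replicates the MDSC deviations mirror each other and give only 1 value, so pairing in MDSC was not settled. With a replicate block, 6 genes were called in MDSC, 0 in TAM and 3 for the difference, where Ctsg was gained (adjusted p = 0.0391), as it was with scaling by total counts (adjusted p = 0.0407). Over all genes, 633 were called in MDSC, 1256 by DESeq2, 130 with no filter, 2674 with the replicate block, 2666 in one fit of all libraries and 1 to 4406 on leaving out 1 library. The difference of effects called 4132 genes, and 2446 to 7023 on leaving out 1 library. Scaling by total counts moved its calls lower in TAM from 2102 to 3132 and shifted the median of all genes from -0.01 to -0.18. In TAM, calls lower went from 3805 to 5227 and calls higher from 3452 to 2342. The causes were not tested. The number of libraries, 2 per MDSC genotype, and the depth in TAM, 0 to 40 reads per gene, limit what can be said.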
